A study of Mus musculus with 12 samples.

Results

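The 76 genes described here are the nuclear genes for mitochondrial ribosomal proteins, chosen as every gene on the array whose annotated symbol begins with Mrpl or Mrps and a number. They are 76 of the 19505 genes tested, with 48 Mrpl symbols (large subunit) and 28 Mrps symbols (small subunit), and each had a single row. They were measured in regulatory T cells, a class of CD4 T cell that holds immune responses in check, taken from the lymph nodes of female mice 4 to 8 weeks old. The comparison is between 6 mice of the NOD strain, which develops autoimmune diabetes spontaneously, and 6 mice labelled NOD.Drak2-/-, a name for loss of the kinase Drak2 (gene Stk17b) on that background. No other allele, agent or treatment is labelled for either genotype, and the making of the Drak2 allele was not given in the sources used here. Labels give the cells as CD4+ CD8- CD25+ CD45RBlo, while the antibodies listed for the sort (CD4, CD8, CD45RB) include none to CD25. There was 1 array per mouse; the replicates are numbered 1 to 6 in NOD and 1 to 5 and 7 in NOD.Drak2-/-.

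Mitochondria carry their own ribosome, which translates the few proteins encoded by mitochondrial DNA, all of them core subunits of the oxidative phosphorylation complexes or ATP synthase. Its RNAs are made inside the organelle, while every one of its proteins is encoded in the nucleus, made in the cytosol and imported. Some of these proteins have counterparts in bacterial ribosomes and others are found only in mitochondria. T cells are known to need mitochondrial translation when they are activated and divide, and regulatory T cells are known for a strong reliance on oxidative metabolism.

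All values are log2 array values, and each difference is NOD.Drak2-/- minus NOD. The deposited values of any 2 arrays correlated at 0.968 to 0.991 across genes, which are not independent replicates. Stk17b had means of 10.5 in NOD and 10.3 in NOD.Drak2-/-, a difference of -0.27 that missed the threshold (limma, adjusted p = 0.517), and it checks the labels only if its probes lie in the altered part, which these sources do not state. Of 8 regulatory T cell markers measured, 7 had a mean above the brightest background row (5.87), but Il2ra, which encodes CD25, lay in the background range at 4.82 and 5.00. Foxp3 was also listed but had no row under that symbol among the genes tested, so it could not be checked. All 6 CD4 T cell markers, 2 of 3 CD8 T cell markers (Cd8b1 the brightest at 7.36), 1 of 7 B cell markers (Cd79b at 6.13), 1 of 9 myeloid markers (Cst3 at 10.5), 0 of 3 natural killer cell markers, 3 of 7 stromal and endothelial markers and the 1 measured erythroid marker (Alas2 at 5.89) exceeded that row. None of these markers passed the adjusted threshold between genotypes in limma, but 5 were at an unadjusted p under 0.05: Cd79b (0.48), Eomes of the CD8 T cell list (0.42), and, below the background row, the myeloid Csf1r (0.55), the B cell Pax5 (-0.54) and the natural killer cell Klre1 (0.32). Their part in the members' values was not tested beyond a fit with the B cell markers as covariate. The mean of 11 heat shock and dissociation genes ran from 7.53 to 7.85 over NOD arrays and from 7.37 to 8.02 over NOD.Drak2-/- arrays. These genes include transcription factor genes such as Fos, Jun and Egr1, so their mean cannot be read as RNA quality alone. Of the 11, 1, Fos (0.44), was at an unadjusted p under 0.05. In bulk RNA of sorted cells, a change in the mix of cells and a change in RNA per cell cannot be told apart.

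The mitochondrial ribosomal protein genes were detected nearly throughout, and none passed the test between genotypes. A mean above the brightest of the background rows, which hold probes with no target in the genome, was found for 72 of the 76, against 41.7% of all genes. The exceptions were Mrpl43 (means of 4.61 in NOD and 4.55 in NOD.Drak2-/-), Mrps5 (5.10 and 5.06), Mrpl44 (5.33 and 5.53) and Mrps15 (5.70 and 5.83), whose means lay in the range of those probes. None of the 76 passed an adjusted p of 0.05 (limma, Benjamini-Hochberg over all genes), where 0.0205% of all genes, 4 in number, did. At an unadjusted p under 0.05, 3 members were counted, or 3.95%, below the 9.43% of all genes. Mrpl11 and Mrpl1 had lower means in NOD.Drak2-/- (5.69% of all genes were counted in that direction) and Mrps31 a higher one (3.74%). Among genes above background, where these 3 members lay, 3.56% were counted as lower and 5.68% as higher. The split of the members turned with the scaling. With arrays centred on their medians 1 was lower (Mrpl11) and 3 were higher (Mrpl9, Mrps25 and Mrps31). With quantile normalization of the tested genes 4 were lower (Mrpl1, Mrpl11, Mrps16 and Mrps18c) and 0 higher. In no member were the values of the 2 genotypes free of overlap, against 0.513% of all genes.

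The differences were small and lay on both sides of 0. They ran from -0.41 for Mrpl11 to 0.27 for Mrps31, with a median of -0.012 and quartiles of -0.095 and 0.088. The median over all genes was -0.020, and over the 8128 genes above background it was 0.027. The typical size of a difference, regardless of sign, was 0.096 for the members and 0.127 for all genes. Negative differences were found for 40 of the 76 members (52.6%), against 54.1% of all genes and 44.6% of the genes above background. The members' count was 27 when each array was centred on its own median, which moved the median over all genes from -0.020 to 0.046. For all 76 members the 95% interval of the difference lay within 1 log2 unit, a factor of 2, either way (98.1% of all genes), and for 58 of them (76.3%) within 0.5 log2 units (63.4% of all genes). The interval reached 0.290 to either side of the estimate for the median member, from 0.187 for Mrpl37 to 0.517 for Mrpl57. For 73 of the 76 members this reach exceeded the size of the difference, so the interval included 0.

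**Figure D1:**
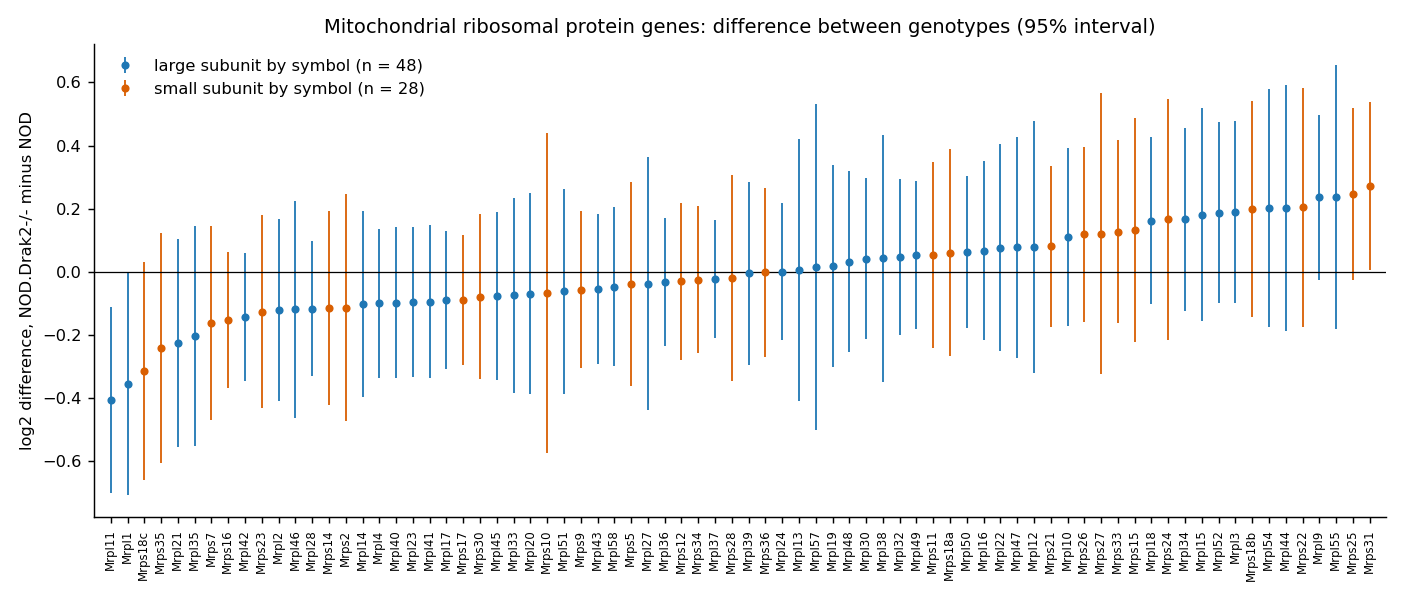
Log2 difference between genotypes for each of the 76 genes, ordered by size, with the 95% interval from the limma fit as a vertical line; blue marks large and orange small subunit symbols. The points run from -0.41 (Mrpl11) to 0.27 (Mrps31), both colours are spread along the whole order, and 3 intervals do not cross 0.

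By subunit, 24 of the 48 large subunit genes had a negative difference, and the median was -0.0024. Of the 28 small subunit genes, 16 did, with a median of -0.022. The symbol is not a perfect guide to place: the proteins of Mrps30 and Mrps18a are known to sit in the large subunit, and that of Mrps36 is now counted as part of the oxoglutarate dehydrogenase complex. Among proteins with bacterial counterparts the median was 0.00055 over 29 large subunit genes and -0.039 over 17 small subunit genes. Among proteins found only in mitochondria it was -0.0054 over 19 large subunit genes and 0.12 over 11 small subunit genes, of which 5 were negative. These classes were described and not tested against each other.

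Mrpl11 and Mrpl1 had the most negative differences. Mrpl11, whose protein lies at the base of the stalk that receives translation factors, ranged in NOD from 7.63 through a median of 8.03 to 8.13, and in NOD.Drak2-/- from 7.16 through 7.54 to 7.96. All NOD.Drak2-/- arrays but replicate 4 lay under the NOD mean, yet NOD replicates 4 and 6 lay below that highest NOD.Drak2-/- value, so the groups overlapped. The means were 7.95 ± 0.20 (SD, n = 6) and 7.54 ± 0.28, a difference of -0.41 (SE 0.139, 95% interval -0.70 to -0.11; limma adjusted p = 0.469; exact permutation p = 0.0173, two-sided). This was the smallest adjusted p of any member.

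Mrpl1, whose protein forms the opposite stalk, where spent transfer RNA leaves, ranged from 6.49 through 6.77 to 7.32 in NOD and from 6.16 through 6.43 to 7.01 in NOD.Drak2-/-. Again 5 of 6 NOD.Drak2-/- arrays lay below the NOD mean and replicate 4 stood above it. The difference was -0.36 (SE 0.167; limma adjusted p = 0.528; exact permutation p = 0.0844). Mrps18c, one of 3 mammalian copies of the bacterial S18 protein, ranged from 8.94 through 9.23 to 9.50 in NOD and from 8.41 through 8.81 to 9.39 in NOD.Drak2-/-. Its 4 lower NOD.Drak2-/- arrays, replicates 1, 2, 5 and 7, all lay under every NOD value, while replicates 3 and 4 lay among the NOD values, and the difference was -0.32 (SE 0.163; limma adjusted p = 0.555; exact permutation p = 0.106).

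The hybridization controls are labelled transcripts of bacterial and phage genes, added when the array is loaded. They ran opposite to Mrpl11 over the NOD.Drak2-/- arrays, while the NOD arrays were mixed. Their mean was 9.12 to 9.72 on NOD arrays (average 9.43) and 8.95 to 10.7 on NOD.Drak2-/- arrays (average 9.91). The highest values were on NOD.Drak2-/- replicates 2 (10.7), 5 (10.5) and 1 (10.2), where Mrpl11 was at 7.16, 7.35 and 7.51, and the lowest NOD.Drak2-/- values were on replicates 3 (8.95) and 4 (9.22), where it was at 7.70 and 7.96. Among NOD arrays the highest control mean was on replicate 3 (9.72), with Mrpl11 at 8.06 and Mrps18c at its NOD maximum of 9.50. The next highest was on replicate 6 (9.59), where Mrpl11 (7.63) and Mrps18c (8.94) were at their NOD minimum. The lowest was on replicate 2 (9.12), with Mrpl11 at 8.08 and Mrps18c at 9.05. With the mean of these controls as a covariate, the difference was -0.24 for Mrpl11, -0.20 for Mrpl1 and -0.12 for Mrps18c, each with a limma adjusted p of 0.9999. That value is not particular to these genes: Mrpl12 had it under the same fit, and every named gene, Mrps31 included, reached it under an alternative. With the controls as covariate, Mrps31 was the only member at an unadjusted p under 0.05, and the share of all genes counted there was 4.35%. Because the controls also differed in mean between genotypes, this fit cannot fully separate controls from genotype. The part of the controls in these differences was not tested.

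Mrps31 was the member with the largest positive difference. Its protein belongs to the head of the small subunit and has no bacterial counterpart. The values ran from 6.38 through 6.46 to 6.98 in NOD and from 6.61 through 6.81 to 7.03 in NOD.Drak2-/-. All 6 NOD.Drak2-/- arrays lay above the NOD mean, and the overlap came from NOD replicate 5 alone, since the other 5 NOD arrays lay under the lowest NOD.Drak2-/- value. The means were 6.55 ± 0.22 (SD, n = 6) and 6.82 ± 0.17, a difference of 0.27 (SE 0.125, 95% interval 0.0054 to 0.54; limma adjusted p = 0.524; exact permutation p = 0.0476). Without NOD replicate 5 it was 0.36 (limma adjusted p = 0.537).

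Mrpl42, a large subunit protein found only in mitochondria, had tight NOD values from 9.61 through 9.74 to 9.76 and NOD.Drak2-/- values from 9.36 through 9.56 to 9.70. All 6 NOD.Drak2-/- arrays lay below the NOD mean, with overlap at NOD replicates 2 and 3. The difference was -0.14 (SE 0.0954; limma adjusted p = 0.643; exact permutation p = 0.0216), and with Mrpl11 and Mrps31 it made up the 3 members (3.95%) at a permutation p under 0.05, against 9.13% of all genes.

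**Figure D2:**
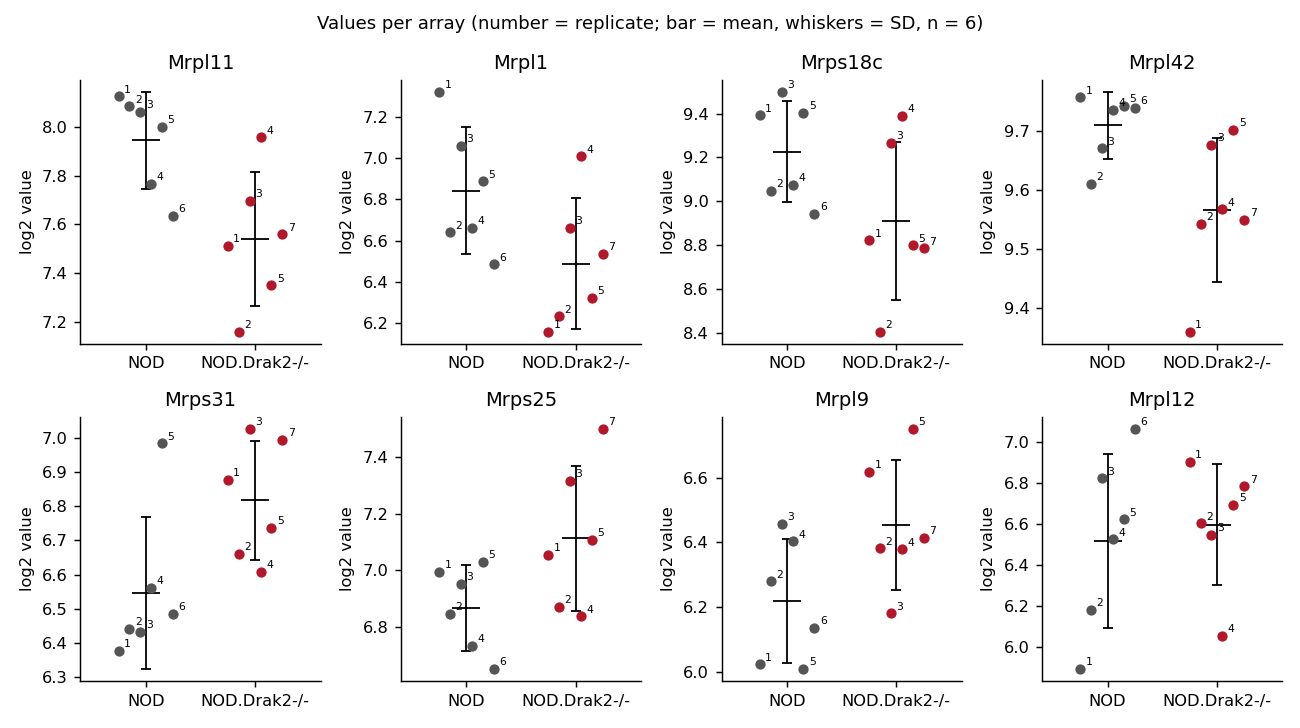
Log2 values of 8 genes on each array (grey, NOD; red, NOD.Drak2-/-; the small number is the replicate), with mean and SD as bar and whiskers; each panel has its own vertical axis. The genotypes overlap in all 8 panels, and NOD.Drak2-/- replicate 2 is the lowest array for Mrpl11 and Mrps18c while replicate 4 is the highest NOD.Drak2-/- array for Mrpl11, Mrpl1 and Mrps18c.

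The remaining members with the smallest p-values in each direction had differences of at most 0.25 in size. On the negative side were Mrps35 (-0.24), Mrpl21 (-0.23), Mrpl35 (-0.20) and Mrps16 (-0.15). On the positive side were Mrps25 (0.25), Mrpl9 (0.24), Mrps18b (0.20), Mrpl3 (0.19), whose protein reaches toward the peptidyl transferase centre, Mrpl52 (0.19), Mrpl34 (0.17) and Mrpl18 (0.16), a protein of the central protuberance. Their limma adjusted p-values lay between 0.563 for Mrps25 and 0.709 for Mrpl34. Mrps25 ranged from 6.65 through 6.90 to 7.03 in NOD and from 6.84 through 7.08 to 7.50 in NOD.Drak2-/-, and NOD.Drak2-/- replicates 1, 3, 5 and 7 lay above every NOD value. Mrpl9 ranged from 6.01 through 6.21 to 6.46 in NOD and from 6.18 through 6.40 to 6.75 in NOD.Drak2-/-, and its 2 highest arrays were NOD.Drak2-/- replicates 1 and 5. The 57 members named neither by this ranking nor for their role had differences from -0.16 (Mrps7) to 0.24 (Mrpl55), 31 of them negative, with limma adjusted p-values of 0.713 and above.

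The 3 copies of the S18 protein differed in the sign of their estimates. Against -0.32 for Mrps18c stood 0.20 for Mrps18b (95% interval -0.14 to 0.54) and 0.060 for Mrps18a (-0.27 to 0.39), and no estimate of the 3 passed the threshold; the difference between copies was not tested. Mrps18a turned negative with array weights and without NOD replicate 2. Mrpl12, a stalk protein also reported to bind the mitochondrial RNA polymerase, ranged from 5.89 through 6.57 to 7.06 in NOD and from 6.05 through 6.65 to 6.90 in NOD.Drak2-/-, a difference of 0.079 whose sign turned without NOD replicate 1 and when the hybridization controls entered the fit. Mrpl58, a peptidyl-tRNA hydrolase that rescues stalled ribosomes, ranged from 8.76 through 9.05 to 9.29 in NOD and from 8.79 through 8.99 to 9.17 in NOD.Drak2-/-, a difference of -0.047 that turned positive when arrays were centred on their medians and without NOD replicate 6.

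The upstream sequence of 3 of the members described above, and the gap between a pair of them that face each other, are shown because these genes are known to share promoter elements. The 3 were taken for a motif match before the start: Mrpl42 has a match only after its start, and the windows of Mrpl11, Mrpl1 and Mrps31 hold none. The sequences are RefSeq's for GRCm38.p6, read 5′ to 3′ toward the gene's start, and capitals mark a match of a searched motif. Mrps18c lies on chr5:100798601-100798758 (plus strand; trimmed where its neighbour Helq starts), Mrpl9 on chr3:94443086-94443335 (plus), Mrps16 on chr14:20393491-20393740 (minus), and the gap from Mrpl46 to Mrps11, chosen after the values were seen, on chr7:78783090-78783130 (plus).
Mrps18c: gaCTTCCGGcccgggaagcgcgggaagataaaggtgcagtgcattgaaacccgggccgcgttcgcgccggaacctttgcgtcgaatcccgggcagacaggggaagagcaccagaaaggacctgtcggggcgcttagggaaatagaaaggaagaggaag
Mrpl9: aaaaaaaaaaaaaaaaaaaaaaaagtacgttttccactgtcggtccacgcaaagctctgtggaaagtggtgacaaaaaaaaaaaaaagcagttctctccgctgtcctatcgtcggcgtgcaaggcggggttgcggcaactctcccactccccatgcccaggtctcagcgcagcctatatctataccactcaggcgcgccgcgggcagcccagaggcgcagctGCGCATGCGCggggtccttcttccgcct
Mrps16: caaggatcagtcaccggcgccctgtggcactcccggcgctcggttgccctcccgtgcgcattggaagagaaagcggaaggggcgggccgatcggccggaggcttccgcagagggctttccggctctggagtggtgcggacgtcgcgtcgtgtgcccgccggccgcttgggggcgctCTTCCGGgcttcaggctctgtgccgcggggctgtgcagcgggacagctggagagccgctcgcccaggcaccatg
Mrps11: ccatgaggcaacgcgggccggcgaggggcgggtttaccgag
The capitals are an ETS/GABP match on the opposite strand at position -156 for Mrps18c and -74 for Mrps16 (the base before the start is -1), and for Mrpl9 a palindromic stretch that holds an NRF-1 match on each strand, at -28 and -26. The Mrps18c match lies beside the start of Helq, which is 159 bases from that of Mrps18c. The 41 bases between Mrpl46 and Mrps11 hold none of the motifs.

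Over the whole group, 67 of the 76 members had a RefSeq window (250 bases before to 50 after a start; 73 windows). The NRF-1 letters GCGCATGC, on either strand, were in 8 of the 73 (11.0%), against 2.71% of all 32851 windows. The ETS/GABP letters CCGGAAG were in 25 (34.2%, against 8.86%), and the YY1 letters AAGATGGC in 12 (16.4%, against 2.75%). Any of the 3 was in 37 windows (50.7%, against 13.3%). The 8 YY1 matches on the gene's own strand all lay after the start, from position 12 to 37, among them those of Mrpl42, Mrpl35 and Mrps18a. Member windows were also richer in G and C, with a median of 58.3% against 52.7%, and the part of this in the motif shares was not tested. A match is a run of letters and not a measured site.

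Many of these genes stand back to back with another gene. A start on the other strand, pointing away and within 1000 bases, was found for 26 of the 67 members (38.8%), at a median distance of 129.5 bases. The share was 12.2% of all genes with a window, and 13.8% of those tested on the arrays. Mrpl46 and Mrps11 share such a gap, 42 bases from start to start, with differences of -0.12 for Mrpl46 and 0.053 for Mrps11. Other partners also serve mitochondria (these were picked after the values were seen): Sars2, a mitochondrial seryl-tRNA synthetase, faces Mrps12, the helicase gene Twnk faces Mrpl43, and the complex I gene Ndufb5 faces Mrpl47. Of the 21 measured partners that are not members, 13 had a negative difference, the median was -0.040, and none reached an unadjusted p under 0.05 in limma.

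**Figure D3:**
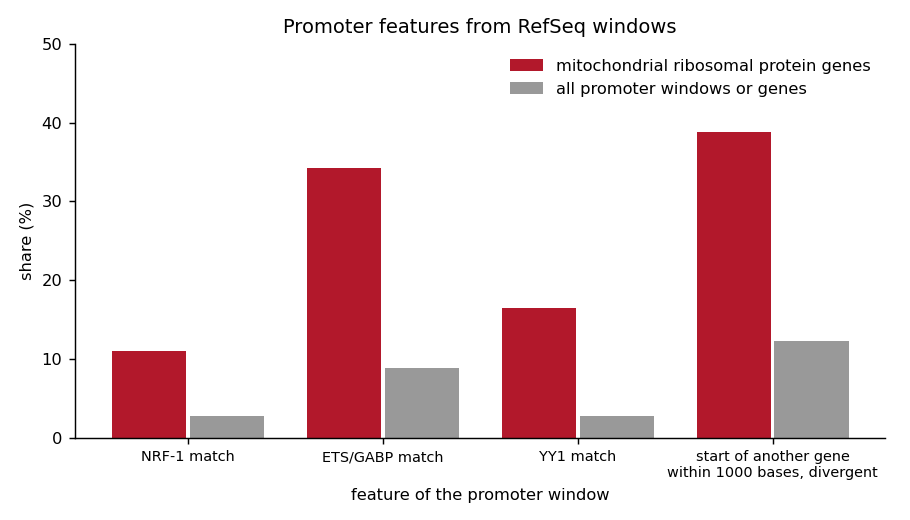
Share of promoter windows that hold each motif, and share of genes with a divergent neighbour's start within 1000 bases, for the mitochondrial ribosomal protein genes (red) and for all RefSeq windows or genes (grey). The red bars reach 11.0%, 34.2%, 16.4% and 38.8%, the grey ones 2.71%, 8.86%, 2.75% and 12.2%; these are descriptions of sequence with no test.

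The average level of these genes varied more between mice than between genotypes. Averaged over the 76 members, the arrays ran from 7.44 to 7.66 in NOD and from 7.37 to 7.66 in NOD.Drak2-/-, with means of 7.53 ± 0.082 and 7.53 ± 0.097 (SD, n = 6). On NOD replicate 5, 63 of the 76 members lay above their own mean over the 12 arrays (82.9%, against 58.0% of the genes above background). On NOD.Drak2-/- replicate 2 only 20 did (26.3%, against 46.8%), and on NOD replicate 2 only 26 (34.2%, against 40.1%). NOD.Drak2-/- replicate 2 was the lowest of all 12 arrays for 20 members, and replicate 7 of that genotype the highest for 15.

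The 2 subunits followed each other across arrays. Large subunit genes lay on average 0.15 below their means on NOD.Drak2-/- replicate 2 and small subunit genes 0.17 below. On NOD replicate 5 they lay 0.12 and 0.16 above, and on NOD.Drak2-/- replicate 7, 0.12 and 0.13 above. Other gene groups shared part of this order: on NOD.Drak2-/- replicate 2, 19.0% of 63 cytosolic ribosomal protein genes and 28.6% of 28 oxidative phosphorylation genes lay above their own means, and on NOD replicate 5, 68.3% and 78.6%. The array that was lowest also had the highest hybridization controls (10.7) and the highest brightest background row (6.77, against 5.51 to 6.52 on the others), and the part of these in its low values was not tested. Without it, 31 members had a negative difference and the median was 0.028. Mrpl11 (-0.33), Mrps25 and Mrps31 were then at an unadjusted p under 0.05 (3.95%, against 8.42% of all genes).

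**Figure D4:**
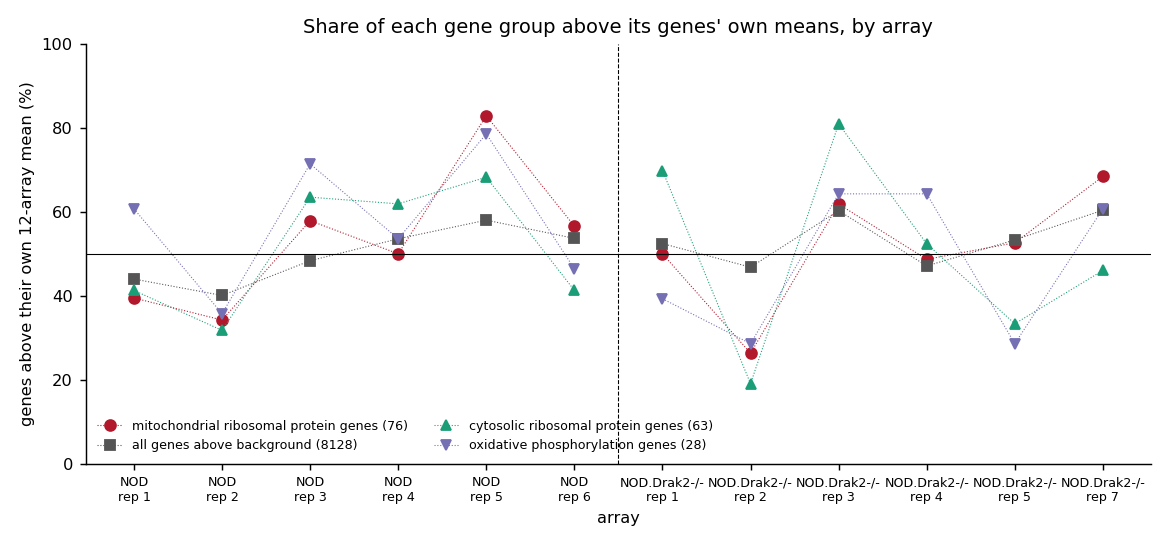
For each array, the share of genes that lie above their own mean over the 12 arrays: mitochondrial ribosomal protein genes (red), all genes above background (grey), cytosolic ribosomal protein genes (green) and oxidative phosphorylation genes (purple); dotted lines only join points of a group. The red points run from 34.2% to 82.9% in NOD and from 26.3% to 68.4% in NOD.Drak2-/-, a wider span than the grey points. In NOD.Drak2-/- the green points span more, from 19.0% to 81.0%, and the purple points less, from 28.6% to 64.3%.

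Single members differed widely in how steady they were; these were picked for their spread after it was seen. Mrpl37 had a residual SD of 0.052, with every array between 9.95 and 10.15, while Mrpl57 had one of 0.498, from 8.73 to 9.61 in NOD and from 8.04 to 9.87 in NOD.Drak2-/-. Mrps10 had a residual SD of 0.487. The median over the members was 0.234, against 0.25 over all genes.

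Genes that work with the mitochondrial ribosome were described in the same way, and none of those on the lists passed the adjusted threshold. The ribosomal proteins without an Mrp symbol had 4 measured genes, with a median of 0.054 and none at an unadjusted p under 0.05 in limma. Dap3, a GTP-binding protein of the small subunit, ranged from 8.98 through 9.20 to 9.32 in NOD and from 9.11 through 9.21 to 9.39 in NOD.Drak2-/- (difference 0.061). Ptcd3, an RNA-binding protein of the same subunit, differed by 0.096, and this turned negative without NOD replicate 2.

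Of 15 translation factors, 7 had a negative difference and the median was 0.079 (5 and 0.14 with centred arrays). At an unadjusted p under 0.05 there was 1 (3 with centred arrays, 0 with the hybridization controls in the fit): Mtif3, an initiation factor (0.47), whose values lay in the background range. Of 26 genes for assembly of the ribosome and modification of its RNA, 14 were negative (10 with centred arrays) and the median was -0.030 (0.036 with centred arrays). At an unadjusted p under 0.05 there were 3 (11.5%, against 9.43% of all genes), or 1 with the hybridization controls in the fit. All 3 had a higher mean in NOD.Drak2-/-, a direction in which 3.74% of all genes and 5.68% of those above background were counted. These were Trmt2b, a methyltransferase (0.36), Mtg2, a GTPase of large subunit assembly (0.34), and Fastkd2, which binds the large ribosomal RNA (0.32). Trmt2b ranged from 5.41 through 5.66 to 5.90 in NOD and from 5.91 through 5.96 to 6.36 in NOD.Drak2-/-. Its groups did not overlap, as in 0.513% of all genes. The limma adjusted p was 0.469 and the exact permutation p 0.00216, the smallest that 6 against 6 can give. The mean of Trmt2b over all arrays, like that of Mtg2, was below the background row.

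Of 19 mitochondrial aminoacyl-tRNA synthetase genes, 14 had a positive difference and the median was 0.11 (0.18 with centred arrays, 0.045 with the hybridization controls). At an unadjusted p under 0.05 there was 1 (5.26%, against 9.43% of all genes), or 2 with centred arrays and 0 with the hybridization controls. In the reported fit this was Rars2 (0.46). Its mean over all arrays, 5.83, was just below the background row, while its NOD.Drak2-/- mean, 6.05, was above it. The 12 genes of mitochondrial DNA maintenance and transcription had a median of 0.10 (0.17 with centred arrays) and none at that level; Polg2, the accessory subunit of the DNA polymerase, had the smallest p (0.15). Among 9 regulators of mitochondrial genes, which include those for NRF-1, GABP and YY1, 7 were positive, the median was 0.086 (0.15 with centred arrays) and none was at that level (1 with centred arrays). Nrf1, which encodes the factor NRF-1, ranged from 8.60 through 8.99 to 9.11 in NOD and from 8.75 through 9.27 to 9.40 in NOD.Drak2-/-. Its values were higher in 5 of 6 NOD.Drak2-/- arrays than the NOD mean, with overlap, and the difference was 0.25 (limma adjusted p = 0.566; exact permutation p = 0.0823).

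Nuclear genes of oxidative phosphorylation and of the cytosolic ribosome lay near 0 as well. Of 28 oxidative phosphorylation genes, 17 were negative (13 with centred arrays) with a median of -0.037 (0.029 with centred arrays). At an unadjusted p under 0.05 there was 1 (3.57%, against 9.43% of all genes), or 0 with centred arrays or with the hybridization controls. In the reported fit this was the ATP synthase gene Atp5j (-0.26, limma adjusted p = 0.518). Of 63 cytosolic ribosomal protein genes, 40 were negative (15 with centred arrays) with a median of -0.011 (0.055 with centred arrays). None was at an unadjusted p under 0.05 in limma, while 3 were at an exact permutation p under 0.05 (9.13% of all genes). For 1 of the 63 the genotypes did not overlap (0.513% of all genes). Rps4l had the smallest limma p (-0.40), with a mean over all arrays of 5.66, below the background row. Mitochondrially encoded genes were not analysed here. Of 19 cell cycle genes, 17 were negative (16 with centred arrays) and the median was -0.23 (-0.15 with the hybridization controls in the fit). At an unadjusted p under 0.05 there were 3 (15.8%, against 9.43% of all genes), each lower in NOD.Drak2-/- (5.69% of all genes, 3.56% of those above background). These were Nusap1, a spindle protein (-0.70), Stmn1, which destabilises microtubules (-0.47), and Pcna, the replication clamp (-0.28). With centred arrays there was 1, with quantile normalization 4 and with the hybridization controls 0. The mean of the cell cycle list ran from 7.12 to 8.22 over NOD arrays and from 7.002 to 7.84 over NOD.Drak2-/- arrays, so the genotypes overlapped.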

How the data were processed

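Arrays of 1 colour measured RNA of sorted regulatory T cells from 6 NOD and 6 NOD.Drak2-/- mice; per the labels' protocols, 125 ng of RNA per array was labelled with a whole-transcript kit. The authors deposited log2 values; RMA, which subtracts background, equalises the distribution of arrays and summarises probes, and the R package oligo come from the submitters' processing notes, with versions not given in the sources used here. Because distributions were equalised, a shift shared by most genes cannot be seen. No counts underlie the values, so precision rests on the number of arrays.

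Of 29129 rows, 6923 were controls; 19572 had 1 gene symbol and 2634 transcript rows had none. The brightest row per gene was kept (19505 genes, no filter on dim genes). The background level is the mean of the brightest of 23 antigenomic rows. Genotypes were compared with limma 3.58.1 in R 4.3.3 (lmFit, eBayes, no covariate), with Benjamini-Hochberg adjustment over all genes and a threshold of 0.05; unless another test is named, p-values are from this fit. Single genes also had a two-sided exact permutation test over 924 regroupings. The fit was tested on simulated data.

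Members and lists were chosen with earlier results of these data known. Named genes are the 8 members with the smallest p in each direction, the Mrps18 copies, Mrpl12, Mrpl58, Dap3, Ptcd3, members below background, and up to 3 genes per list; others are said to be chosen after their values were seen. Promoter windows came from RefSeq (GRCm38.p6) by symbol; the array's own build was not given in the sources used here. Alternatives were another normalization, filter, row rule, variance model, technical or other-cell covariates, a replicate block, and leaving out each array.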

Additional observations from a re-analysis of the deposited data

Results flagged for a closer look

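Of 68 groups of 6 arrays examined over 34 quantities, 6 held a single array far from the others, where chance gives about 1 in 20; over all 76 members it was 7 of 152 groups. Among the mitochondrial ribosomal protein genes these were Mrps31, at 6.98 on NOD replicate 5 with the next array at 6.56, and Mrpl52, at 7.69 on NOD replicate 2 with the next at 8.22. Ptcd3 was also low on NOD replicate 2, at 6.18 with the next at 6.91. Trmt2b stood high on NOD.Drak2-/- replicate 7, at 6.36, and Atp5j on NOD replicate 5, at 10.26. Rps4l was low on NOD.Drak2-/- replicate 2, at 4.40.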

How the results depend on the processing

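No mitochondrial ribosomal protein gene passed the adjusted threshold under any of the 24 alternatives, and the smallest adjusted p was 0.166, for Mrpl1 when the difference between GC-rich and GC-poor background rows entered as a covariate. The sign held under all 24 for 41 of the 76 members. The count at an unadjusted p under 0.05 was 3 in the reported fit (3.95%, against 9.43% of all genes). It was 1 (1.32%) with an intensity trend and robust spread, against 9.13% of all genes. With the hybridization controls it was also 1 (4.35% of all genes), and with the B cell markers 1 (8.99%). With the GC difference as a covariate it was 5 (6.58%, against 13.7% of all genes). When single arrays were left out it was 1 to 5. It was 1 without NOD replicate 1 (7.38% of all genes) or NOD.Drak2-/- replicate 7 (7.86%). Without NOD.Drak2-/- replicate 4 it was 5 (6.58%, against 13.0%). Mrpl11 was in each of these sets but that of the hybridization controls. The number of all genes past the threshold, 4 as reported, was 0 by ordinary least squares, 0 with the replicate block, 2 with the hybridization controls, 8 with the GC difference, 1 with the B cell markers, and 1 to 2 when single arrays were left out. With the replicate number as a block, 3 members (3.95%, against 7.79% of all genes) were at an unadjusted p under 0.05: Mrpl1, Mrpl11 and Mrpl54. Under that fit 43 members were negative. Deviations of same-numbered mice correlated at -0.18 to 0.087, and 0 of the 5 shared numbers correlated best with their own. The numbers were therefore not taken as pairs. The median of the members ran from -0.031 to 0.053 over all alternatives, and 27 to 47 members were negative. Signs turned for Mrps18a (-0.0088 with array weights, -0.030 without NOD replicate 2; -0.030 to 0.15 over single arrays left out), Mrpl12 (-0.071 with the hybridization controls, -0.046 without NOD replicate 1; -0.046 to 0.19), Mrpl58 (0.019 with arrays centred on their medians, 0.0034 without NOD replicate 6; -0.10 to 0.0034) and Ptcd3 (-0.055 without NOD replicate 2; -0.055 to 0.16); the cause was not tested. Signal over background limits Mrpl43, Mrpl44, Mrps5 and Mrps15.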
